A study of Mus musculus with 6 samples.

Results

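Fibroblast growth factor (FGF) signalling was examined in mouse embryonic hearts through 39 genes, of 22180 genes measured in all. The genes were chosen by symbol alone: every Fgf gene with a number, Fgfr1 to Fgfr4, Fgfrl1, the Sprouty genes Spry1 to Spry4, Spred1 to Spred3, Dusp6, Il17rd, and the ETS transcription factor genes Etv1, Etv4 and Etv5. They comprise 22 numbered Fgf genes, 4 receptor genes, the receptor-like gene Fgfrl1, 9 feedback inhibitor genes and 3 ETS factor genes. For short all 22 are called ligand genes, though 4 of them, the FGF11 subfamily, encode proteins that stay inside the cell. Of the 39 genes, 34 had 1 array row and 5 had several, for which the brightest row was used. The Hdac3-Isl1KO group held 3 samples of genotype Hdac3-flox/flox; Isl1-Cre, and the Hdac3-flox/flox group held 3 samples that carried the floxed gene without Cre. All samples were RNA of pooled hearts at embryonic day 9.5 on strain C57BL/6, hybridised to Affymetrix arrays, and values are RMA log2 values. Isl1-Cre acts in cells that express Isl1 and their descendants, which are only some of the cells of a heart, so each value averages deleted and undeleted cells. No sample carried Isl1-Cre without the floxed Hdac3 gene, so effects of the Cre allele and of Hdac3 loss cannot be told apart. The sources used here give neither the number of hearts in a pool nor the litters they came from. The p-values therefore cover the spread among pools, part of which may be technical.

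FGF ligands bind receptor tyrosine kinases of the Fgfr family on neighbouring cells, with heparan sulfate as co-receptor, and switch on the Ras and ERK kinase cascade. ERK activity induces the ETS factors Etv4 and Etv5 and a set of inhibitors, among them the Sprouty and Spred proteins, the ERK phosphatase Dusp6 and the membrane protein Il17rd (also called Sef), which dampen the same pathway, so their transcript levels are widely used as a readout of FGF activity. In the early embryo Fgf8 and Fgf10 mark the second heart field, the Isl1-expressing progenitors that build the outflow tract and right ventricle, and Fgf8 is needed for their survival and growth.

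The hearts and the deletion were checked first. All 8 cardiomyocyte markers (Tnnt2, Tnni1, Actc1, Myl7, Myl4, Myh6, Myh7 and Nkx2-5) averaged above 5.44 over the 6 arrays, the 95th percentile of 1390 olfactory and vomeronasal receptor genes, which serve here as a guide to the signal of genes that should have little RNA in a heart. Where the Hdac3 probes lie relative to the deleted part is unknown. Hdac3 read 9.11, 9.20 and 9.31 in Hdac3-Isl1KO hearts and 9.67, 9.73 and 9.64 in Hdac3-flox/flox hearts, a log2 difference of -0.47 (95% interval -0.66 to -0.29, limma adjusted p = 0.0636, range 0.00108 to 0.244 over the alternatives). Isl1 differed by -0.033 (95% interval -0.27 to 0.20), a sign that turned to 0.011 under quantile normalization. Of the 8 cardiomyocyte markers 0 were called and 6 had negative differences. Their mean level per array lay between 11.57 and 11.61 in Hdac3-Isl1KO hearts and between 11.63 and 11.65 in Hdac3-flox/flox hearts. Of the endocardium, second heart field, neural crest, primitive blood and neural tube markers 0 were called. Their median differences were -0.0545, 0.070, 0.049, 0.095 and 0.070, in that order. Of the 7 measured second heart field markers 4 had positive differences and 3 negative ones. Markers of the remaining tissues moved further with genotype. Of 5 measured trophoblast markers 4 were called higher, with mean levels between 6.51 and 6.62 in Hdac3-Isl1KO hearts and between 5.25 and 5.44 in Hdac3-flox/flox hearts. Of 8 proepicardial and epicardial markers 3 were called lower and 2 had positive differences. The mean levels of these 8 lay between 7.81 and 7.82 in Hdac3-Isl1KO hearts and between 8.18 and 8.28 in Hdac3-flox/flox hearts. All 8 liver and yolk sac endoderm markers and all 8 markers of simple epithelium and pharyngeal endoderm had positive differences, with medians of 0.48 and 0.40. Of these only 1 liver and yolk sac marker was called higher. However, 5 of the liver and yolk sac markers and 4 of the epithelium and pharyngeal markers averaged below 5.44. The part of these tissues in the FGF results was not tested. In such bulk samples fewer cells of a type and less RNA per cell cannot be told apart. Array medians lay between 5.64 and 5.71, and pairs of arrays correlated at 0.980 to 0.989.

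None of the 39 FGF genes was called different between Hdac3-Isl1KO and Hdac3-flox/flox hearts (0 higher and 0 lower, limma adjusted p under 0.05 over all genes, where 0.428% of all genes were called), and 0 were called under any of the 16 alternatives. The lowest adjusted p among them was 0.196, for Fgf5, and the lowest under any alternative was 0.0729, for Etv1 with genes below the median left out. At an unadjusted limma p under 0.05 there were 8 of 39 genes, or 20.5%, against 14.5% of all genes: Fgf5, Fgf22, Fgf12 and Etv5 with positive differences and Il17rd, Etv1, Fgf16 and Fgf1 with negative ones. That count was 4 without Hdac3-flox/flox replicate 1, 5 without Hdac3-flox/flox replicate 2 and 2 without Hdac3-Isl1KO replicate 2, and 6 or 7 without any other single array. The share of all genes was 12.2%, 12.4% and 10.5% in the same order, and 10.8% to 15.1% without any other single array. Arrays of the groups did not overlap for 10 of 39 genes, or 25.6%, 6 with Hdac3-Isl1KO above and 4 with it below, where 21.8% of all genes did not overlap. The shares of 20.5% and 25.6%, over all 6 arrays, lie near those of all genes.

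The differences ranged from -0.31 for Fgf1 to 0.38 for Fgf22. The 95% interval of every one of the 39 genes lay between -0.67 and 0.81, inside a log2 change of 1 in either direction, and for 32 of them inside a log2 change of 0.5. Most genes on these arrays were bounded in the same way, 21878 of 22180 inside a change of 1 and 17201 inside a change of 0.5. These intervals are per gene and not adjusted for their number, and they refer to RMA values, which compress the changes of dim genes. Positive differences were seen for 29 of 39 genes (74.4%, against 50% of all genes), with a median of 0.050 against 0.00009 for all genes. Dim genes leaned upward on these arrays in general: the 8762 genes whose mean over the 6 arrays lay below the olfactory receptor guide had a median of 0.035 and the 13418 above it -0.018. The FGF genes held 14 with a mean below the guide (Fgf2, Fgf3, Fgf5, Fgf6, Fgf10, Fgf12, Fgf14, Fgf15, Fgf16, Fgf20, Fgf21, Fgf23, Fgfr4 and Spry3), with a median of 0.13, and 25 above it, with a median of 0.041. Below the guide, 11 of the 14 had positive differences, against 5106 of the 8762 genes. Above it, 18 of the 25 did, against 5987 of the 13418 genes. The cause of the positive share among the FGF genes was not tested.

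**Figure D1:**
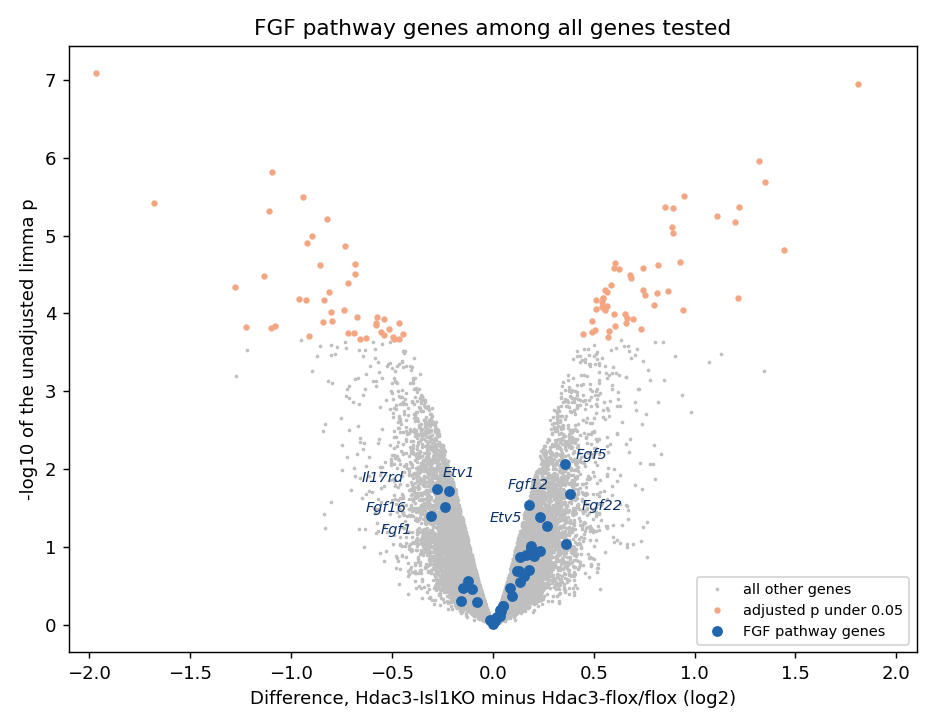
Each point is a gene, with its log2 difference (Hdac3-Isl1KO minus Hdac3-flox/flox) across and the -log10 of its unadjusted limma p upward (n = 3 arrays per group). The 39 FGF pathway genes (blue) lie among the uncalled genes (grey), between -0.31 and 0.38, and none is among the 95 genes with an adjusted p under 0.05 (orange).

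Promoter sequences are printed for the 3 genes with the lowest unadjusted p, Fgf5, Il17rd and Etv1, and for Etv5, the relative of Etv1 whose difference had the opposite sign, since ETS factors act at the end of the FGF pathway and bind sites with a GGAA core. Each window runs from 250 bases before to 50 bases after the most upstream RefSeq gene start, 5′ to 3′ on the gene's strand, in build GRCm38.p6, and capitals mark GGAA or its reverse complement TTCC, counted with overlaps. Fgf5 lies at chr5:98253934-98254233 on the + strand, Il17rd at chr14:27038751-27039050 on the + strand, Etv1 at chr12:38779832-38780131 on the + strand and Etv5 at chr16:22439521-22439820 on the - strand.
Fgf5: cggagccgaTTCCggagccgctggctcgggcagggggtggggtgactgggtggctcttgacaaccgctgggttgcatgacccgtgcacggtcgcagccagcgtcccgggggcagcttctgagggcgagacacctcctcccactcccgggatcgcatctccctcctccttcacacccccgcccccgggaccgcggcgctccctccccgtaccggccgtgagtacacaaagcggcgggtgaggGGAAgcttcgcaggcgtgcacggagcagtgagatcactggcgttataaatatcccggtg
Il17rd: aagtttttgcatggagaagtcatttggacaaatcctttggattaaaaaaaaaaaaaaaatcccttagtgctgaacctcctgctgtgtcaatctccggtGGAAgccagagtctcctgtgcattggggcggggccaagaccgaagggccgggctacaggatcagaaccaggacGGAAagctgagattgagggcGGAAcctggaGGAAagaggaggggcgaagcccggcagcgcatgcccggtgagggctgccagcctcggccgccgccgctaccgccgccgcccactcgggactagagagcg
Etv1: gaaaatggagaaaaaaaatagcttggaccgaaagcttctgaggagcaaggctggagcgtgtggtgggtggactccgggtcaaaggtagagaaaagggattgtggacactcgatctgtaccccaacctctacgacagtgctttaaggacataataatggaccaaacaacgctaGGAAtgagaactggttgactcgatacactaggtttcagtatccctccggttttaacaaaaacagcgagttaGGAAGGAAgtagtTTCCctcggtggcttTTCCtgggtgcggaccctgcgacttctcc
Etv5: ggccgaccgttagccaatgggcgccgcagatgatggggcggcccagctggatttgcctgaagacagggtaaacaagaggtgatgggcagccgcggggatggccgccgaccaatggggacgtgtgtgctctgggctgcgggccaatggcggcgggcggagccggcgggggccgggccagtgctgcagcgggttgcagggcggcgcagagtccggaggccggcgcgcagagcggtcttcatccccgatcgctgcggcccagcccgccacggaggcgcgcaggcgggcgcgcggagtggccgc

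The core GGAA occurred 2 times in the Fgf5 window, 4 times in that of Il17rd, 5 times in that of Etv1 and 0 times in that of Etv5, counting both strands. It is a common word, present in 96% of 32851 promoter windows of this length with a median of 3 matches. The longer form CCGGAA occurred 1 time in the Fgf5 window and 0 times in the other windows. RefSeq entries matched 29 of the 39 genes, and 4 of these 29 (13.8%) held CCGGAA, namely Fgf5, Fgfr4, Fgfrl1 and Spry2, against 14.9% of all windows. The windows were rich in G and C, with a median of 59.3% for the 29 genes against 52.7% for all windows, and the 4 printed ranged from 48.7% in Etv1 to 74% in Etv5. These matches describe the letters in the windows and are not evidence of binding.

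Among the ligands, Fgf5 had the lowest p. Fgf5, a member of the FGF4 subfamily best known for ending the growth phase of the hair cycle, read 5.42, 5.21 and 5.24 in Hdac3-Isl1KO hearts, against 5.04, 4.97 and 4.77 in Hdac3-flox/flox hearts. All Hdac3-Isl1KO arrays lay above all Hdac3-flox/flox arrays, and the difference was 0.36, or 1.28-fold (95% interval 0.12 to 0.59, limma adjusted p = 0.196). Both group means, 5.29 ± 0.11 and 4.93 ± 0.14 in Hdac3-Isl1KO and Hdac3-flox/flox hearts (SD, n = 3 each), lay below the olfactory receptor guide of 5.44, so whether the heart expresses Fgf5 cannot be read from these arrays. Its relatives Fgf6, expressed in skeletal muscle, and Fgf4, a growth factor of the early embryo and limb bud, differed by 0.14 and 0.00109, and the sign of Fgf4 turned under 3 scalings or weightings.

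Of the second heart field ligands, Fgf8 read 5.75, 5.77 and 5.86 in Hdac3-Isl1KO hearts, against 5.70, 5.54 and 5.74 in Hdac3-flox/flox hearts. The groups did not overlap, but the gap between the nearest arrays was small. The difference was 0.14 (95% interval -0.055 to 0.33, limma adjusted p = 0.497). That interval, for this gene alone, allows at most a 1.25-fold higher or 1.04-fold lower level on the array scale. Fgf8 read not far above the olfactory receptor guide, and RMA values compress the changes of dim genes. A larger change of its RNA is therefore not excluded. Fgf17, of the same subfamily, read 6.46, 6.33 and 6.34 in Hdac3-Isl1KO hearts, against 6.31, 5.89 and 6.14 in Hdac3-flox/flox hearts, again with all Hdac3-Isl1KO arrays above, and differed by 0.27 (95% interval -0.0071 to 0.54, limma adjusted p = 0.357). Fgf18, a ligand known from bone and cartilage, overlapped between groups and differed by 0.036.

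Fgf10, the other second heart field ligand, read 5.45, 5.42 and 5.42 in Hdac3-Isl1KO hearts, against 5.16, 5.47 and 5.28 in Hdac3-flox/flox hearts. The groups overlapped, with Hdac3-flox/flox replicate 2 highest of all, and the difference was 0.13 (95% interval -0.089 to 0.35, limma adjusted p = 0.570). A dimmer row of Fgf10 read 4.65, 5.29 and 5.0 in Hdac3-Isl1KO hearts and 4.50, 4.28 and 5.06 in Hdac3-flox/flox hearts, also overlapping, with a difference of 0.36. The mean over the 6 arrays lay below the olfactory receptor guide for both rows, while single arrays of the brighter row reached above it.

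The other members of the FGF7 subfamily, whose ligands act mainly on epithelial Fgfr2, were Fgf22, Fgf7 and Fgf3. Fgf22, known as an organiser of synapses, had the highest difference of all 39 genes. It read 7.04, 7.18 and 7.22 in Hdac3-Isl1KO hearts, against 6.74, 6.53 and 7.02 in Hdac3-flox/flox hearts. The groups were separated only by the distance from 7.02 to 7.04, and the difference was 0.38, or 1.31-fold (95% interval 0.078 to 0.69, limma adjusted p = 0.256, range 0.0866 to 0.494 over the alternatives). Fgf7, keratinocyte growth factor, differed by 0.15 with overlapping groups. Fgf3, which acts with Fgf10 in ear and heart development, had the widest interval, -0.67 to 0.36. It read 4.54, 4.05 and 5.0 in Hdac3-Isl1KO hearts and 4.64, 4.68 and 4.73 in Hdac3-flox/flox hearts, and its difference of -0.16 changed sign to 0.083 without Hdac3-Isl1KO replicate 2.

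In contrast to most ligands, Fgf16 and Fgf1 had negative differences. Fgf16, a ligand of the FGF9 subfamily known from heart muscle, read 4.80, 4.82 and 5.01 in Hdac3-Isl1KO hearts, against 5.12, 5.20 and 5.02 in Hdac3-flox/flox hearts. All Hdac3-Isl1KO arrays lay below, by a narrow margin for replicate 3, all 6 arrays were under the olfactory receptor guide, and the difference was -0.24 (95% interval -0.44 to -0.030, limma adjusted p = 0.290). Fgf1, acidic FGF, which has no classical secretion signal and binds all receptors, read 6.02, 6.00 and 6.20 in Hdac3-Isl1KO hearts, against 6.29, 6.62 and 6.22 in Hdac3-flox/flox hearts. The groups again did not overlap, and the difference of -0.31, or 1.24-fold lower, had a 95% interval of -0.60 to -0.018 (limma adjusted p = 0.316). It was -0.18 without Hdac3-flox/flox replicate 2, the highest array for this gene. Fgf9, an epicardial and endocardial signal to the heart muscle, differed by -0.12 with overlapping groups. Fgf20, of the same subfamily, read 4.45, 4.84 and 4.17 in Hdac3-Isl1KO hearts, against 4.19, 3.88 and 4.29 in Hdac3-flox/flox hearts. Its groups overlapped and lay below the olfactory receptor guide, with a difference of 0.36 (95% interval -0.077 to 0.81, limma adjusted p = 0.431). Fgf2, basic FGF, differed by 0.021, a sign that turned under quantile normalization.

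Fgf12 stood out among the FGF11 subfamily, whose proteins stay inside the cell and bind voltage-gated sodium channels instead of Fgfr receptors. It read 5.30, 5.35 and 5.39 in Hdac3-Isl1KO hearts, against 5.19, 5.19 and 5.12 in Hdac3-flox/flox hearts, both below the olfactory receptor guide. The groups did not overlap, and the difference was 0.18 (95% interval 0.024 to 0.34, limma adjusted p = 0.285). Fgf13, Fgf14 and Fgf11, of the same subfamily, overlapped between groups and differed by 0.016, 0.037 and -0.10, and the sign of Fgf14 turned under quantile normalization. The hormone-like ligands overlapped between groups, and their means over the 6 arrays lay below the olfactory receptor guide. Fgf15, a gut hormone also made in the embryonic pharynx and brain, read 5.42, 5.56 and 5.48 in Hdac3-Isl1KO hearts, against 5.15, 5.38 and 5.44 in Hdac3-flox/flox hearts, a difference of 0.16. Its dimmer row read 5.11, 5.36 and 5.48 in Hdac3-Isl1KO hearts and 5.24, 5.47 and 5.23 in Hdac3-flox/flox hearts, a difference of 0.0013. Fgf21, a liver hormone, differed by 0.23 and the phosphate-regulating Fgf23 by -0.078.

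**Figure D2:**
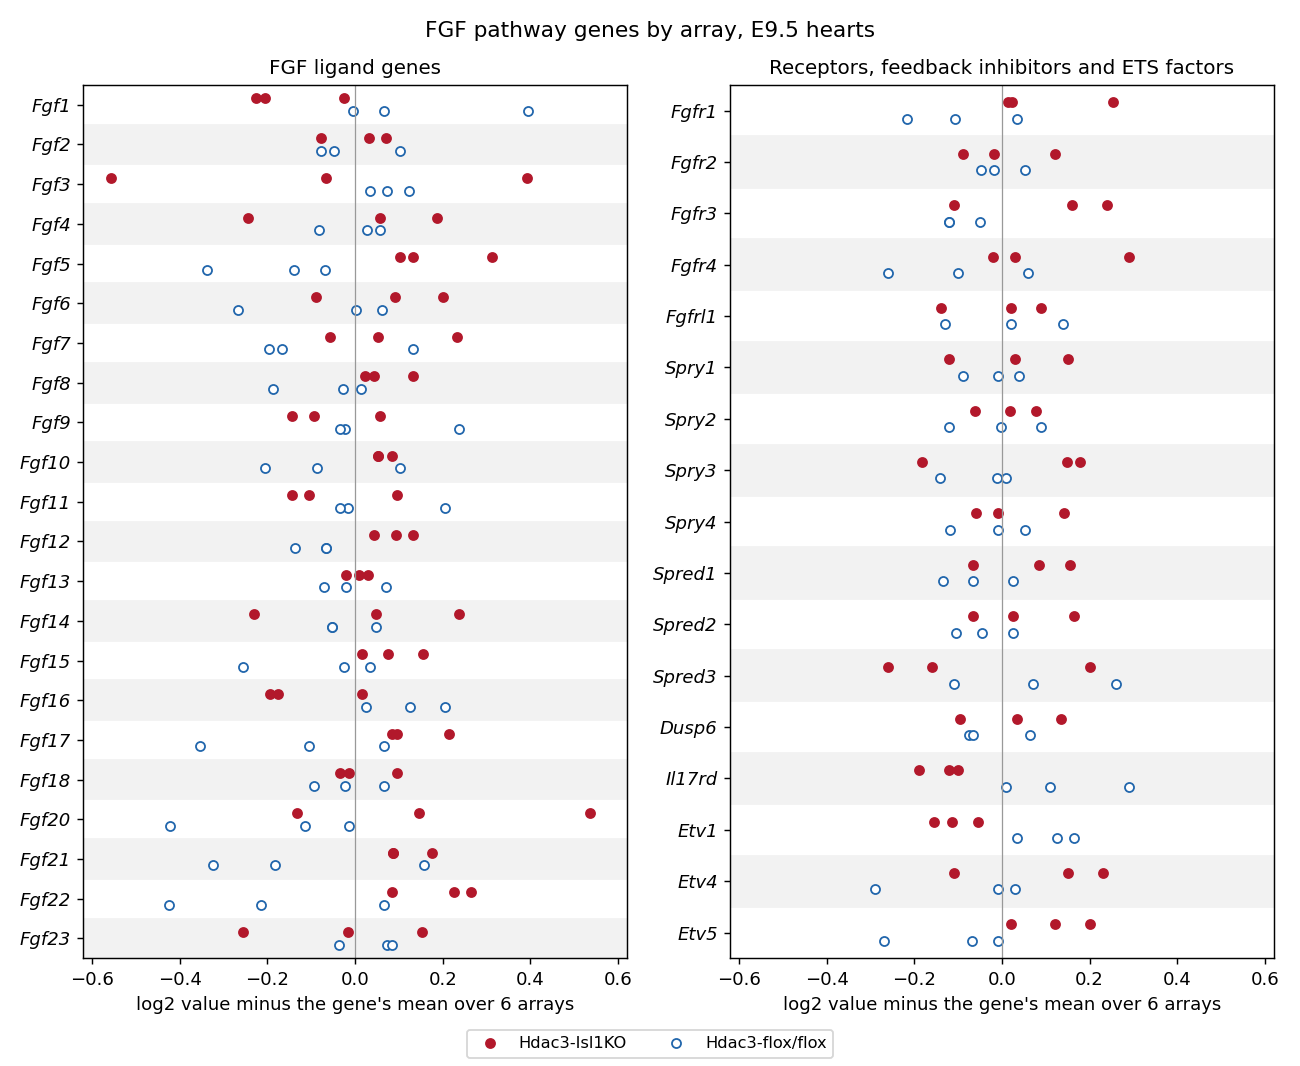
Points show each array's log2 value minus that gene's mean over the 6 arrays, for 22 ligand genes (left) and for the receptors, feedback inhibitors and ETS factors (right), with Hdac3-Isl1KO (filled, red) above Hdac3-flox/flox (open, blue) in each row. The groups are separated for 10 genes, such as Fgf5, Fgf12, Il17rd and Etv1, and overlap for the other 29.

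The receptors overlapped between groups in all 5 cases, with 0 at an unadjusted limma p under 0.05. Most genes on the arrays did the same, since 21.8% of all genes did not overlap and 14.5% had such a p. These counts are therefore not particular to the receptors. Fgfr1, the main receptor of mesodermal cells, read 7.63, 7.40 and 7.39 in Hdac3-Isl1KO hearts, against 7.41, 7.27 and 7.16 in Hdac3-flox/flox hearts. Its Hdac3-Isl1KO replicate 1 was the highest, and the difference of 0.19 had a 95% interval of -0.046 to 0.43 (limma adjusted p = 0.442). Fgfr2 read 8.02, 7.88 and 7.81 in Hdac3-Isl1KO hearts, against 7.88, 7.95 and 7.85 in Hdac3-flox/flox hearts. The arrays of both groups were intermingled and the difference was 0.0098 (95% interval -0.18 to 0.20, limma adjusted p = 0.971), a sign that turned with array weights and with arrays centred on their medians. Fgfr3 and Fgfr4 differed by 0.19 and 0.20, with limma adjusted p-values of 0.449 and 0.486. Fgfrl1, which binds FGF but lacks the kinase domain, differed by -0.016 (95% interval -0.25 to 0.22), a sign that turned under quantile normalization.

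Of the 9 feedback inhibitors, 8 overlapped between groups and 1 did not, where 21.8% of all genes did not overlap. Such a count is not particular to the inhibitors. The 4 Sprouty genes, whose products block the step from receptor to Ras, differed by 0.023 to 0.096, with limma adjusted p-values from 0.746 to 0.929. Spry2 read 7.90, 7.82 and 7.96 in Hdac3-Isl1KO hearts, against 7.88, 7.97 and 7.76 in Hdac3-flox/flox hearts. Spry4 read 7.68, 7.63 and 7.83 in Hdac3-Isl1KO hearts, against 7.74, 7.57 and 7.68 in Hdac3-flox/flox hearts. The groups were intermingled for both. The signs of Spry1, Spry2 and Spry4 turned with Hdac3-Isl1KO replicate 3 left out, as did that of Dusp6, and Spry2 also turned without Hdac3-flox/flox replicate 3. Spry3 lay below the olfactory receptor guide. Dusp6, which removes phosphate from ERK, read 9.970, 9.841 and 10.068 in Hdac3-Isl1KO hearts, against 9.863, 10.001 and 9.865 in Hdac3-flox/flox hearts, again with overlap and a difference of 0.050 (95% interval -0.15 to 0.25, limma adjusted p = 0.834). That interval allows at most a 1.19-fold higher or 1.11-fold lower level on the array scale. A dimmer row of Dusp6 read 5.56, 5.31 and 5.30 in Hdac3-Isl1KO hearts and 5.31, 5.28 and 5.23 in Hdac3-flox/flox hearts, a difference of 0.12. The Spred genes, which encode membrane-bound inhibitors of Raf activation, differed by 0.12 for Spred1, 0.087 for Spred2 and -0.15 for Spred3, all with overlapping groups.

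Il17rd was the inhibitor whose groups did not overlap, and it had the second-lowest p of the 39 genes. It read 6.18, 6.16 and 6.09 in Hdac3-Isl1KO hearts, against 6.57, 6.29 and 6.39 in Hdac3-flox/flox hearts. Every Hdac3-Isl1KO array lay below every Hdac3-flox/flox array, and the mean was 6.14 ± 0.05 in Hdac3-Isl1KO hearts and 6.42 ± 0.14 in Hdac3-flox/flox hearts (SD, n = 3 each). The difference was -0.27, or 1.21-fold lower (95% interval -0.49 to -0.063, limma adjusted p = 0.247, range 0.0754 to 0.481 over the alternatives). It lay between -0.34 and -0.20 with any 1 array left out.

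Of the 3 ETS factors, all members of the PEA3 group, 0 were called, and the differences were negative for Etv1 and positive for Etv4 and Etv5. Etv1 read 7.70, 7.60 and 7.64 in Hdac3-Isl1KO hearts, against 7.79, 7.92 and 7.88 in Hdac3-flox/flox hearts. All Hdac3-Isl1KO arrays lay below, and the difference was -0.21 (95% interval -0.38 to -0.047, limma adjusted p = 0.252). Etv5 read 6.82, 7.0 and 6.92 in Hdac3-Isl1KO hearts, against 6.53, 6.79 and 6.73 in Hdac3-flox/flox hearts. Here all Hdac3-Isl1KO arrays lay above, and the difference was 0.23 (95% interval 0.013 to 0.46, limma adjusted p = 0.320). Etv4 read 6.09, 5.75 and 6.01 in Hdac3-Isl1KO hearts, against 5.89, 5.85 and 5.57 in Hdac3-flox/flox hearts, with overlapping groups and a difference of 0.18 (limma adjusted p = 0.568).

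Second rows of Etv1 and Etv5 gave the same signs. The dimmer Etv1 row read 6.47, 6.65 and 6.54 in Hdac3-Isl1KO hearts, against 6.88, 6.65 and 6.65 in Hdac3-flox/flox hearts, a difference of -0.17 with groups that met at 6.65. The dimmer Etv5 row read 5.53, 5.47 and 5.62 in Hdac3-Isl1KO hearts, against 5.48, 5.32 and 5.35 in Hdac3-flox/flox hearts, a difference of 0.16 with overlapping groups. Within each array, Etv5 minus Etv1 (main rows, log2) was -0.88, -0.60 and -0.71 in Hdac3-Isl1KO hearts, against -1.26, -1.14 and -1.14 in Hdac3-flox/flox hearts. This ratio was higher in all Hdac3-Isl1KO arrays than in any Hdac3-flox/flox array. That separation follows from those of Etv5 and Etv1 given above and adds nothing to them. The ratio was chosen after the values were seen and is given without a test.

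**Figure D3:**
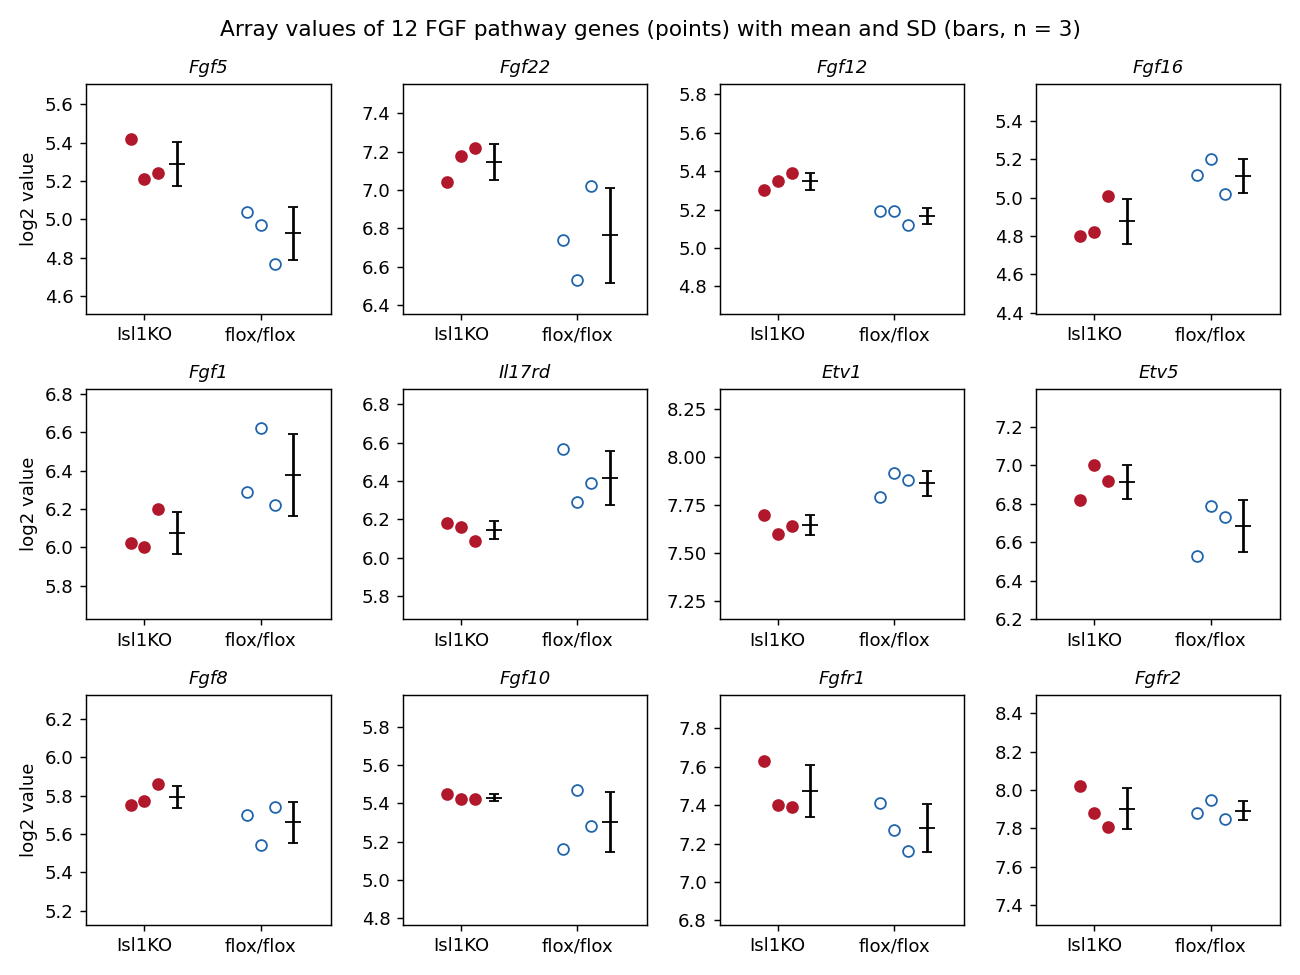
Panels show log2 values of 12 FGF pathway genes in each array (points) with the mean and SD beside them (bars, n = 3), with Hdac3-Isl1KO at left and Hdac3-flox/flox at right and a vertical span of equal length in every panel. The first 8 genes, which have an unadjusted limma p under 0.05, have separated groups, as has Fgf8, while the arrays of Fgf10, Fgfr1 and Fgfr2 overlap.

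**Figure D4:**
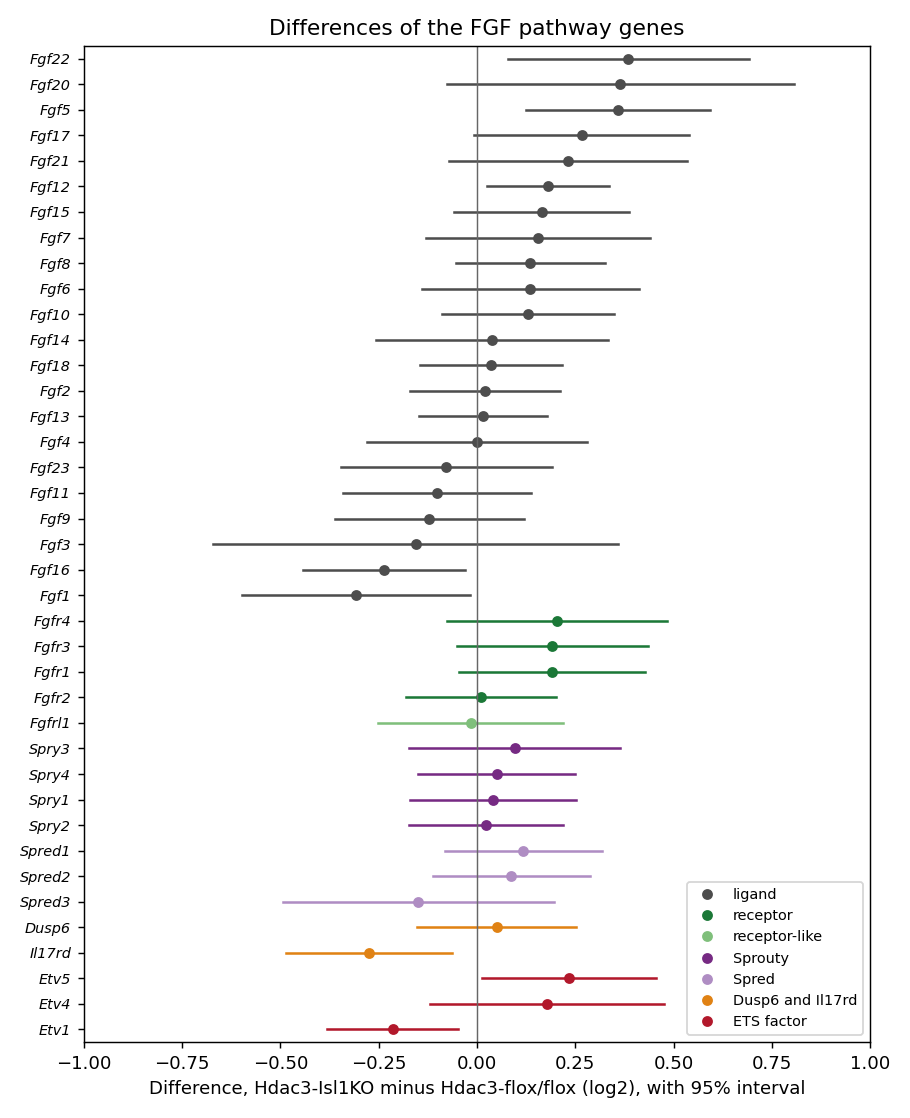
Points are log2 differences (Hdac3-Isl1KO minus Hdac3-flox/flox) with 95% intervals from the limma fit (n = 3 arrays per group), grouped and coloured by role. The intervals of 8 genes exclude 0 before adjustment, and those of the Sprouty genes, Dusp6, Fgfr2 and Fgfrl1 lie on both sides of it.

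The wider pathway was followed in 3 further lists. Of 32 co-receptor and heparan sulfate genes 31 were measured, and 0 were called (0 higher and 0 lower), with 24 differences below and 7 above 0, a median of -0.067, and 5 lower and 2 higher at an unadjusted limma p under 0.05 (7.96% and 6.57% of all genes). Groups did not overlap for 12 of the 31 genes, 9 lower and 3 higher, where 12.4% of all genes lay lower and 9.41% higher without overlap. The cause of this share was not tested. Sulf2 and Sulf1 had the lowest p-values. They encode extracellular sulfatases that remove 6-O-sulfate groups from heparan sulfate, which weakens the binding of FGF ligands to their receptors. Sulf2 read 9.03 in each of the 3 Hdac3-Isl1KO arrays, against 9.41, 9.37 and 9.39 in Hdac3-flox/flox hearts. The groups were far apart for their spread, and the difference was -0.36, or 1.28-fold lower (95% interval -0.50 to -0.22, limma adjusted p = 0.0733). It missed the threshold here and passed it under 5 alternatives, and its limma adjusted p ranged from 0.00131 to 0.264. Sulf1 read 7.47, 7.49 and 7.46 in Hdac3-Isl1KO hearts, against 7.73, 7.79 and 7.81 in Hdac3-flox/flox hearts, again without overlap, and differed by -0.30 (95% interval -0.45 to -0.15, limma adjusted p = 0.115, range 0.0162 to 0.345, past the threshold under 4 alternatives). The FGF carrier protein gene Fgfbp1, at 3.18 ± 0.09 in Hdac3-Isl1KO hearts and 2.97 ± 0.06 in Hdac3-flox/flox hearts (SD, n = 3 each), was dim and differed by 0.22 (limma adjusted p = 0.273).

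Of 28 genes for transducers from receptor to ERK and for kinases that ERK activates, 21 were measured and 0 were called. Their differences lay above 0 for 12 and below 0 for 9, with a median of 0.021. The lowest p-values were those of Araf, a Raf family kinase (-0.21, limma adjusted p = 0.226), Rps6ka3, a kinase activated by ERK (-0.24, adjusted p = 0.372), and the docking protein gene Gab1 (-0.15, adjusted p = 0.403). Araf passed the threshold with both trended variance priors, and its limma adjusted p ranged from 0.0349 to 0.450. Of 15 other genes that ERK signalling induces 14 were measured and 0 were called, with 10 differences above and 4 below 0 and a median of 0.12. Egr2 (0.20), Dusp14 (0.23) and Dusp5 (0.18) had the lowest p-values, with limma adjusted p-values from 0.256 to 0.387. For each, all Hdac3-Isl1KO arrays lay above all Hdac3-flox/flox arrays. Groups did not overlap for these 3 of the 14 genes, near the share of all genes, 21.8%. Egr2 was dim, with a mean of 5.30 over the 6 arrays.

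**Figure D5:**
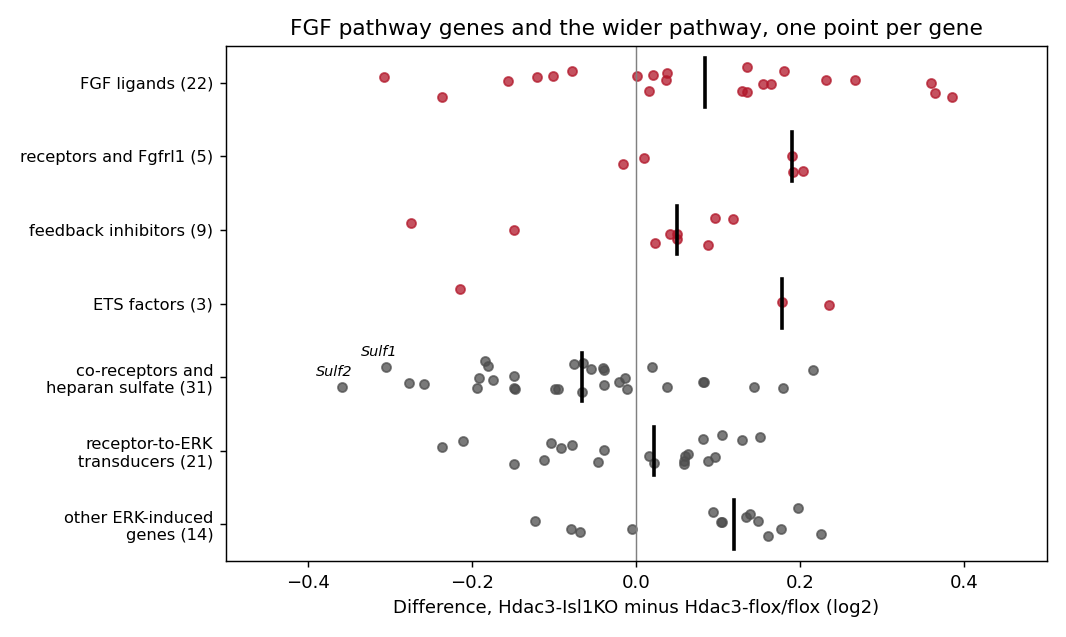
Each point is a gene's log2 difference (Hdac3-Isl1KO minus Hdac3-flox/flox), by role, with a black bar at each median and the number of genes in brackets (red, the FGF pathway genes; grey, the wider pathway). Medians run from -0.067 for the co-receptor and heparan sulfate genes, where Sulf2 and Sulf1 lie lowest, to 0.19 for the receptors with Fgfrl1.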

How the data were processed

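RNA from 3 pools of Hdac3-Isl1KO and 3 of Hdac3-flox/flox hearts was labelled from 100 ng with the Affymetrix WT PLUS kit, per the labels' protocols. The authors deposited log2 values made with oligo and RMA, per the submitters' processing notes; RMA as a method corrects background, quantile-normalizes and summarises probes. The sources used here give no versions, genome build, scan dates or detection calls, so batches were not tested.

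Of 41345 rows, 23521 had 1 gene symbol in the platform annotation, 1814 had several and 16010 none. The brightest row per gene gave 22180 genes, with no filter. Groups were compared in limma 3.58.1 under R 4.3.3 (lmFit, eBayes, two-sided, 6.92 degrees of freedom with the prior) and Benjamini-Hochberg adjustment over all genes, threshold 0.05. On simulated data with 22180 genes, 81.5% of log2 changes of 1 and 30.5% of changes of 0.5 were recovered. There 200 genes got the same upward change and the spreads were shuffled over genes. Recovery for dim genes was therefore not measured. The number of arrays limits precision. Promoters came from RefSeq (GRCm38.p6). Array values were given for the 10 genes with the lowest p, Fgf8, Fgf10, Fgfr1, Fgfr2 and genes with several rows. Lists took genes past the threshold and up to 3 with the lowest p. Values of Fgf3, Spry2, Spry4 and Etv4 were added after they were seen, as were those of other ETS and phosphatase genes. All members and lists were chosen with earlier results of these data known. Alternatives were other variance priors, array weights, scalings, filters, row rules, gene sets, a replicate block and each array left out. Plots used matplotlib 3.10.9.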

Additional observations from a re-analysis of the deposited data

How the results depend on the processing

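With 3 arrays per group and no detection calls, small changes of dim genes cannot be seen. No FGF gene was called under any alternative, including an adjusted p under 0.10 (0 genes), and the median difference stayed between 0.03 and 0.08. The number of genes called among all genes, 95, was 866 with a trended variance prior (and 866 with its robust form), 243 with array weights, 146 with quantile normalization, 519 and 769 without genes below the olfactory receptor guide or below the median gene, 2 to 25 with 1 array left out, and 0 with the replicate block, where 2744 genes had an unadjusted limma p under 0.05. Deviations of same-numbered arrays correlated at -0.01, -0.09 and 0.04, so no pairing by number was seen. With litters and scan dates unknown, these values cannot settle whether the numbers pair the samples. With the block 0 FGF genes were called and 5 had an unadjusted limma p under 0.05. The difference of Hdac3 was called with both trended priors (-0.47), array weights (-0.46) and both filters on dim genes (-0.47). It lay between -0.52 and -0.43 with 1 array left out. Signs turned for 13 of 39 FGF genes. Quantile normalization gave -0.014 for Fgf14, -0.032 for Fgf2, -0.034 for Fgf4 and 0.034 for Fgfrl1, array weights gave -0.029 for Fgf4 and -0.00050 for Fgfr2, and median centring gave -0.013 for Fgf4 and -0.0041 for Fgfr2, while Isl1 became 0.011 under quantile normalization. With 1 array left out, Dusp6 ranged from -0.0044 to 0.11, Fgf13 from -0.016 to 0.056, Fgf14 from -0.074 to 0.16, Fgf18 from -0.0042 to 0.077, Fgf2 from -0.014 to 0.076, Fgf23 from -0.18 to 0.030, Fgf3 from -0.39 to 0.083, Fgf4 from -0.090 to 0.12, Fgfr2 from -0.050 to 0.059, Fgfrl1 from -0.087 to 0.051, Spry1 from -0.023 to 0.11, Spry2 from -0.033 to 0.073, Spry4 from -0.0091 to 0.092 and Isl1 from -0.095 to 0.058. The other 26 FGF genes kept their sign in every alternative that tested them, 19 above and 7 below 0. The cause of these changes was not tested.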

Other observations

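Relatives of the ETS factors and of Dusp6 were also read, by symbol and after the values above were seen. Of 22 other ETS family genes 0 were called (limma adjusted p under 0.05), 2 had an unadjusted p under 0.05 (14.5% of all genes did, and 0.428% were called), and the median difference was -0.014. Spib, known from B cells and plasmacytoid dendritic cells, read 4.45, 4.50 and 4.27 in Hdac3-Isl1KO hearts, against 4.03, 3.87 and 3.95 in Hdac3-flox/flox hearts, a difference of 0.46 (limma adjusted p = 0.0973), below the olfactory receptor guide. Elk4, a serum response factor partner, read 7.02, 7.0 and 6.94 in Hdac3-Isl1KO hearts, against 7.23, 7.18 and 7.21 in Hdac3-flox/flox hearts, a difference of -0.22 (limma adjusted p = 0.218).

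Of 23 other dual-specificity phosphatase genes 0 were called, 6 had an unadjusted limma p under 0.05 (again against 14.5% of all genes, with 0.428% called), and the median was 0.037. Dusp9, an ERK phosphatase expressed in placenta, read 8.36, 8.32 and 8.41 in Hdac3-Isl1KO hearts, against 8.10, 8.08 and 7.95 in Hdac3-flox/flox hearts, a difference of 0.33 (limma adjusted p = 0.136, range 0.0150 to 0.357 over the alternatives). The groups did not overlap, and trophoblast markers were higher in the same hearts, as given above. Their part in this difference was not tested. Dusp19 and Dusp16 had negative differences of -0.29 and -0.24, also without overlap (limma adjusted p = 0.164 and 0.216). Over the alternatives the limma adjusted p ranged from 0.0315 to 0.40 for Dusp19 and from 0.0532 to 0.446 for Dusp16.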
